A study of Saccharomyces cerevisiae with 63 samples.

Results

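The transcriptomes of 2 yeast mutants that lack different ends of one RNA-modification pathway were compared at 7 h of meiosis. The comparison set the 3 libraries of the ime4 mutant at 7 h against the 3 libraries of the pho92 mutant at 7 h, 6 of 63 libraries in all, and covered every gene whose counts were high enough to test, 5822 of 6088. A positive log2 difference here always means a higher level in ime4 than in pho92. Both strains were diploid SK1 yeast (a fast-sporulating background) carrying pCUP-IME1, in which a copper-inducible promoter drives IME1, so the groups shared that allele, the acetate sporulation medium and the 50 µM copper sulfate added at 2 h. The labels give the genotypes as ime4 mutant and pho92 mutant and do not describe the alleles. The 3 replicates of each group are biological replicates according to the design text. The WT libraries of the same background at 7 h and the mutants' libraries at 6 and 9 h are used below as reference levels.

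N6-methyladenosine (m6A) is a methyl mark on mRNA that budding yeast deposits mainly during meiosis. Ime4 is the catalytic subunit of the methyltransferase, and Pho92 carries the YTH domain that binds the mark, so one mutant lacks the writer and the other the reader. The meiotic programme runs from early genes (replication and recombination), switched on through Ime1 and Ume6, to middle genes (divisions and spore formation), switched on by the transcription factor Ndt80, and then to late spore wall genes.

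Total counts of the 6 libraries lay between 16148131 and 20996180. The 100 most abundant genes held 25.2, 24.8 and 26.4% of the counts in the ime4 libraries and 44.8, 40.9 and 34.2% in the pho92 libraries, against 54.3 to 58.5% in WT. The third pho92 library stood apart from the other two in this share, towards ime4, and the third ime4 library stood nearest to pho92. Markers of diploid meiotic cells, fixed as 7 genes such as SPO11 and NDT80, summed to 11555 to 15947 CPM (read counts relative to the scaled library size) in ime4 and 13655 to 15779 CPM in pho92. The 7 haploid markers summed to 169.7 to 182 CPM and 157 to 236 CPM, and the 6 mitotic G1 markers to 125 to 147 CPM and 85.1 to 94.5 CPM. These sums join members of opposite sign. Log2 differences of the G1 markers were 1.41 (CTS1), 0.78 (CLN2), 0.68 (CLN1), 0.40 (DSE1), −0.39 (PCL1) and −0.28 (DSE2). Of the meiotic markers NDT80 (−1.74) and IME2 (−0.70) were negative. HOP1 (1.15), DMC1 (0.96), SPO11 (0.87), ZIP1 (0.75) and REC8 (0.63) were positive. Of the haploid markers STE3 (−0.75), GPA1 (−0.34) and BAR1 (−0.29) were negative. FUS1 (0.65), MF(ALPHA)1 (0.41), MFA1 (0.26) and STE2 (0.14) were positive. DSE1, PCL1, DSE2, IME2, REC8 and the haploid markers other than STE3 and FUS1 had an adjusted p above 0.05 by edgeR's quasi-likelihood test. None of these 20 markers was at 0, and the part of the G1 markers' difference in the results below was not tested. In bulk RNA, fewer cells at a stage and less RNA per cell cannot be told apart.

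The mutated genes come first because they check the labels. IME4 (YGL192W) stood at 0.24, 0.18 and 0.092 CPM in the ime4 libraries and at 120.5, 140.1 and 154 CPM in the pho92 libraries, with 163 ± 7.43 CPM in WT (SD, n = 3). PHO92 (YDR374C) stood at 1.24, 0.17 and 1.28 CPM in the pho92 libraries and at 1177, 914 and 1404 CPM in the ime4 libraries, with 1911 ± 199.6 CPM in WT. Each transcript was thus near 0 in its own mutant alone.

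At 7 h the strains differed across most of the transcriptome, and the large differences were mainly of one sign: transcripts of spore membrane and spore wall were mostly several-fold lower in ime4 than in pho92. Those of meiotic divisions were mostly lower too, but by less and with a split that depended on the scaling. With edgeR's quasi-likelihood test and an adjusted p under 0.05, 3959 of 5822 genes were called (68.0%), 2013 higher in ime4 (34.6%) and 1946 lower (33.4%). Every list count at 7 h below is to be read against these 34.6% and 33.4%. At a difference of at least 1 on the log2 scale the split was 612 higher and 1135 lower, and at 2 or more it was 30 higher and 395 lower. The libraries of the groups did not overlap for 3666 genes (63.0%). The median difference of all genes was 0.08. Scaling by total counts alone moved that median by 0.92 and gave 4038 higher and 761 lower, so small differences are relative to the trimmed-mean (TMM) scaling, and a list whose sign depends on it is marked as such. Of the 1946 genes lower in ime4, 761 stayed lower under total counts and 394 were called higher, while all 2013 higher genes stayed higher. Without the third pho92 library 2116 genes were higher and 2021 lower.

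**Figure D1:**
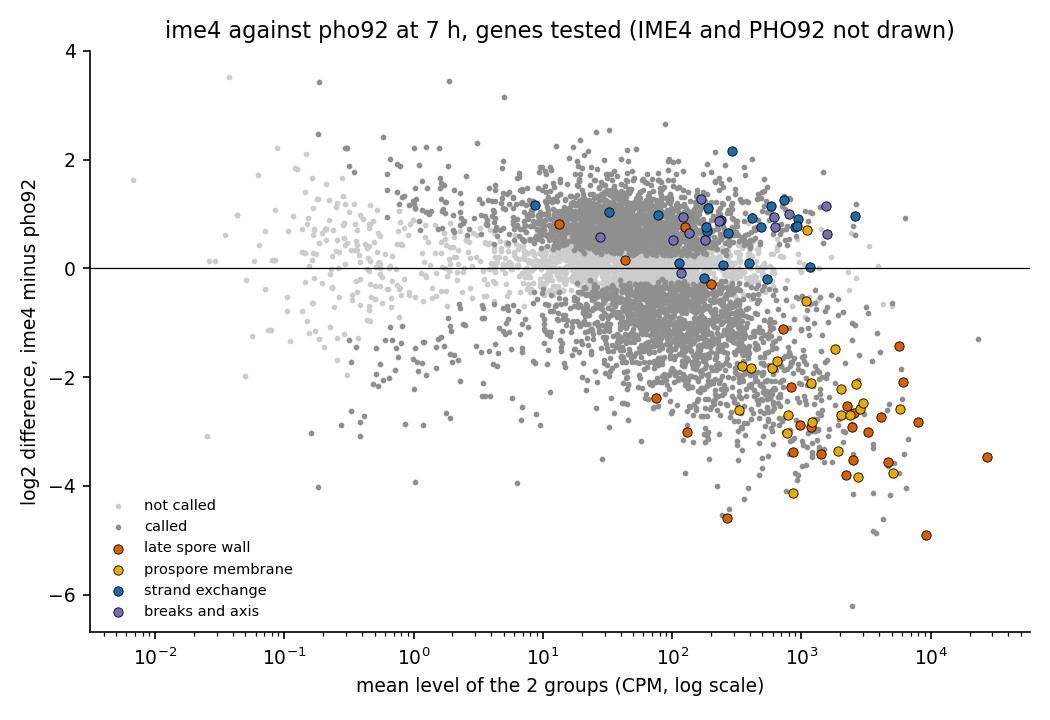
Log2 difference between ime4 and pho92 at 7 h (vertical axis) against the mean level of both groups (CPM, log scale) for the genes tested, with called genes in dark grey and members of 4 gene lists in colour. Late spore wall and prospore membrane genes lie mostly at −2 to −4 and at high levels, and recombination genes mostly between 0 and 1.

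The meiotic regulators differed in both directions. IME1, the inducer of entry into meiosis, stood at 3911, 3916 and 3222 CPM in ime4 and at 1018, 1474 and 2348 CPM in pho92, against 964 ± 106 CPM in WT. Every ime4 library lay above every pho92 library, and the third pho92 library came nearest to ime4. The difference was 1.19 (SE 0.26, adjusted p = 7.31e-05) by edgeR's quasi-likelihood test. NDT80, the middle-gene activator, stood at 951, 583 and 1495 CPM in ime4, 3886, 3919 and 2305 CPM in pho92 and 6269 ± 229 CPM in WT. The groups did not overlap, the third libraries lay closest to each other, and the difference was −1.74 (SE 0.42, adjusted p = 0.000369). This call was lost when total counts alone scaled the libraries (−0.76, adjusted p = 0.0612). IME2, the kinase that promotes the step from early to middle genes, had 3541, 2818 and 5149 CPM in ime4 and 6126, 7190.4 and 5326 CPM in pho92, a difference of −0.70 (SE 0.38, adjusted p = 0.101) that did not pass. It was called without the third ime4 library (−0.97, adjusted p = 0.0451), stood at −0.52 without the second, and turned positive under total counts.

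Of the 20 regulators of meiotic entry and of middle genes, 4 were higher in ime4 and 10 lower (median −0.57), against 34.6% and 33.4% of all genes. The direction turned under total counts (11 higher, 4 lower, median 0.39). The 3 subunits of the Sum1 repressor of middle genes did not move together. RFM1, its linker subunit, had 50.7, 55.4 and 68.6 CPM in ime4 and 271, 194 and 121 CPM in pho92 (−1.75), and HST1, its deacetylase, 372, 241 and 501 and 1256, 1363 and 787 CPM (−1.61). The DNA-binding subunit gene SUM1 was higher in ime4, at 170.0, 139.7 and 134 against 123, 99.0 and 91.0 CPM (0.50, SE 0.14, adjusted p = 0.00191). UME6, which binds early gene promoters, was also higher, at 519, 430.5 and 507 against 267, 182 and 178 CPM (1.22, SE 0.16, adjusted p = 1.21e-08). RME1, a repressor of IME1 best known from haploid cells, stood at 1.01 and the entry kinase gene RIM15 at −0.92, the latter at 0.067 under total counts.

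Among 6 genes of the methyltransferase complex, 1 was higher in ime4 and 2 lower, IME4 itself included (median −0.10), against 34.6% and 33.4% of all genes. The direction turned under total counts (4 higher, 1 lower, median 0.83). VIR1, a complex subunit, had 872, 734 and 786 CPM in ime4 and 236, 308 and 304 CPM in pho92 (1.50, SE 0.21, adjusted p = 5.06e-08), and WT was lower than both at 132 ± 3.04 CPM. SLZ1, another subunit, had 2432, 1838 and 2884 CPM in ime4 and 3427, 4506 and 3837 CPM in pho92. Its difference of −0.72 (SE 0.30, adjusted p = 0.0338) became 0.20 under total counts and was not called without the first or second ime4 library or the second pho92 library (adjusted p = 0.0639 to 0.146). MUM2, KAR4 and DYN2 were not called.

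Early recombination genes stood higher in ime4 than in pho92, where they stood above WT in turn. The summed level of 13 genes of break formation and the chromosome axis was 8656, 7341 and 8303 CPM in the ime4 libraries, 3540.3, 4365 and 5489 CPM in the pho92 libraries and 2176, 2166 and 2137 CPM in WT. The libraries of the 3 strains did not overlap. Of the 13 genes 7 were higher in ime4, none was lower and 6 were not called (median 0.76, against 0.08 over all genes). These counts leaned on single libraries: 1 gene was called without the first pho92 library, 3 without the second and 8 without the third, and all 13 were higher under total counts. SPO11, whose product cuts the DNA, had 311, 275 and 309 CPM in ime4 and 129, 151 and 211 CPM in pho92 (0.87, SE 0.29, adjusted p = 0.00711). REC102, a partner of Spo11, had 250.4, 219 and 242 and 82.4, 81.5 and 128 CPM (1.28, SE 0.34, adjusted p = 0.00111), and the axis gene RED1 912, 692 and 829 and 297, 417 and 552 CPM (0.94, SE 0.31, adjusted p = 0.00759). In each of the 3 genes the ime4 libraries lay above the pho92 libraries, yet SPO11 and RED1 were not called without the first pho92 library (adjusted p = 0.0671 and 0.0818).

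The 23 genes of strand exchange, synapsis and crossover formation had summed levels of 15418, 13193 and 15162 CPM in ime4, 7203, 8692 and 10602 CPM in pho92 and 5239, 5162 and 5386 CPM in WT. Of these genes 12 were higher in ime4, none was lower and 11 were not called (median 0.78). Without the first pho92 library 5 were called, and under total counts 22. RDH54, a DNA translocase that works with the meiotic recombinase, had 439.6, 484 and 492 CPM in ime4 and 92.0, 98.9 and 124 CPM in pho92 (2.17, SE 0.21, adjusted p = 5.41e-12), the largest difference of the list. RAD55 and RAD57, which act in recombinational repair, differed by 1.17 and 0.99 (adjusted p = 5.28e-06 and 2.52e-08). MSH5 (−0.19), outside the naming rule, was not called.

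DNA replication genes were split. Of 26 genes 13 were higher in ime4, 5 lower and 8 not called (median 0.42), against 34.6% of all genes higher and 33.4% lower. Under total counts 23 were higher and none lower. The count of lower genes was 3 without the first ime4, the second ime4 or the first pho92 library. RFC1, the large subunit of the clamp loader, had 70.9, 66.8 and 77.7 CPM in ime4 and 31.8, 35.1 and 44.7 CPM in pho92 (0.95, SE 0.12, adjusted p = 6.67e-09), and RFA3, of the single-strand binding complex, 123, 119 and 113 and 40.9, 41.5 and 59.1 CPM (1.32, SE 0.23, adjusted p = 1.71e-06). The 5 lower genes were MCM4, MCM5, RFC3, RFC4 and DBF4, at −0.26 to −0.85, and all 5 turned positive under total counts (0.10 to 0.70). Without any 1 of those 3 libraries MCM4 and RFC4 lost their calls (adjusted p = 0.0582 to 0.212).

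**Figure D2:**
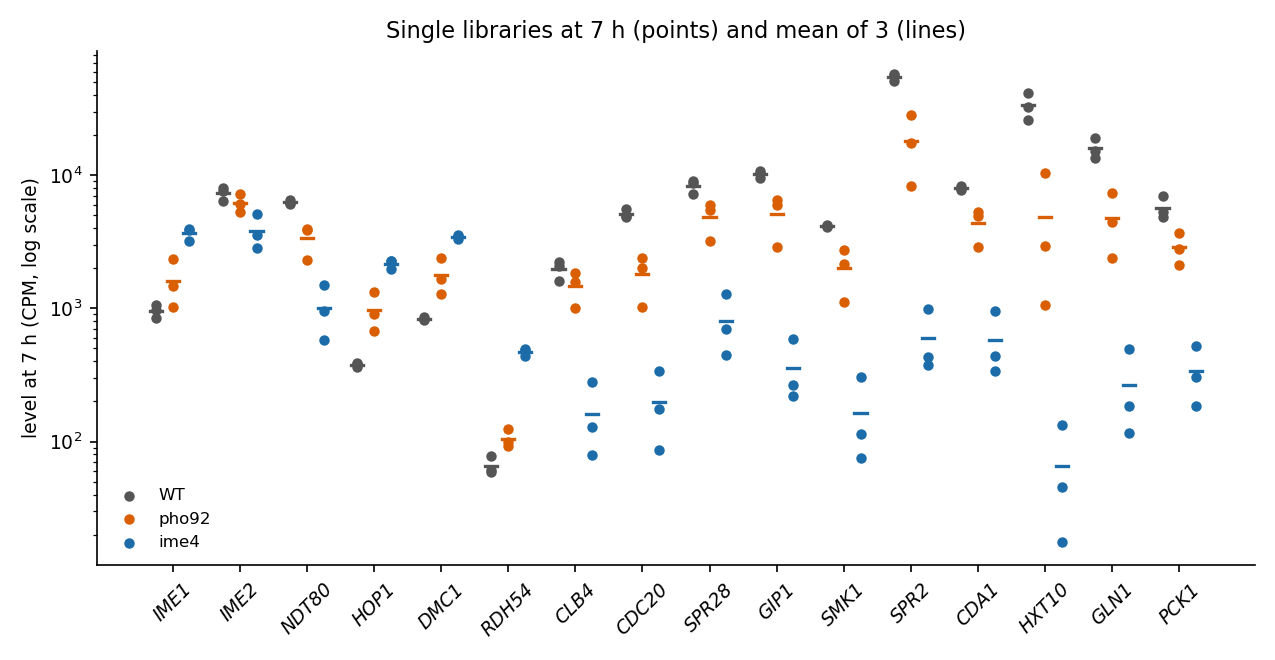
Level at 7 h of 16 genes in single libraries (points) with the mean of 3 (lines), in CPM on a log scale, for WT, pho92 and ime4. The ime4 and pho92 points are separate for all 16 genes, with ime4 above pho92 in IME1, HOP1, DMC1 and RDH54 and below it in the others.

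Genes of the meiotic divisions were mostly lower in ime4. Their summed level over 25 genes was 8501, 6032 and 11786 CPM in ime4, 34150.1, 30868 and 18096 CPM in pho92 and 47350.5, 47686 and 47377 CPM in WT. Of the 25, 16 were lower, 4 higher and 5 not called (median −1.45), a split that total counts changed to 12 lower and 11 higher (median −0.51). CLB4, a B-type cyclin gene, had 129, 79.7 and 279 CPM in ime4 and 1585, 1829 and 1005 CPM in pho92 (−3.18, SE 0.44, adjusted p = 2.62e-08). CDC20, an activator of the anaphase-promoting complex, had 175, 86.4 and 337 and 2388, 2015 and 1027 CPM (−3.18, SE 0.46, adjusted p = 8.81e-08). SGO1, the protector of centromeric cohesion, had 125, 107 and 192 and 911, 1145 and 632 CPM (−2.66, SE 0.33, adjusted p = 1.98e-09). In all 3 genes the third ime4 library was the highest of its group and the third pho92 library the lowest. Without that ime4 library CLB4 stood at −3.82 and CDC20 at −3.79. SPC25, a kinetochore gene, was lower as well (−2.06). The 4 higher genes were SPO1, a meiosis-specific phospholipase gene, at 1165, 895 and 1099 against 314, 398 and 536 CPM (1.34, SE 0.24, adjusted p = 3.86e-06), and the kinetochore genes SPC24, DAM1 and DAD1 (0.48 to 0.72). SPC24 was not called when the first ime4, the first pho92 or the second pho92 library was left out (adjusted p = 0.0764, 0.178 and 0.0665).

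Genes that build the prospore membrane, the envelope that becomes the spore's own membrane, and the sporulation septins were lower in ime4 almost throughout. Their summed level over 23 genes was 11802, 7759 and 19666 CPM in ime4, 84648, 81088 and 44535 CPM in pho92 and 122295, 133728 and 136775 CPM in WT. The 3 strains did not overlap, and WT was highest. Of 23 genes 21 were lower, 1 was higher and 1 was not called (median −2.58), and 19 were lower under total counts (median −1.60). GIP1, which directs a phosphatase to septins, had 265, 219 and 594 CPM in ime4 and 6530.4, 5941 and 2907 CPM in pho92 (−3.84, SE 0.55, adjusted p = 7.14e-08). SPO20, a membrane fusion protein gene, had 290.1, 188 and 552 and 4672, 4046 and 1838 CPM (−3.36, SE 0.47, adjusted p = 3.74e-08), and SPO14, a phospholipase D gene, 414, 298 and 637 and 2119, 2305 and 1361 CPM (−2.10, SE 0.29, adjusted p = 2.65e-08). The exception was FKS3, a glucan synthase homologue, with 1511, 1271 and 1365 CPM in ime4 and 664, 807 and 1060.3 CPM in pho92. Its difference of 0.71 (SE 0.28, adjusted p = 0.024) became 0.64, 0.53 and 0.66 and was no longer called when the first ime4, the first pho92 or the second pho92 library was left out (adjusted p = 0.0698, 0.155 and 0.0779).

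The Smk1 pathway, a kinase module of spore morphogenesis, was lower in ime4 in all 6 genes (median −3.10), and in all 6 under every scaling and every left-out library. SMK1, the kinase, had 114, 74.9 and 304 CPM in ime4, 2761, 2155 and 1109 CPM in pho92 and 4145 ± 71.5 CPM in WT (−3.61, SE 0.63, adjusted p = 2.79e-06). SSP2, which activates it, had 571, 380.4 and 1445 and 14759.8, 9699 and 4365 CPM (−3.59, SE 0.62, adjusted p = 2.34e-06), and CAK1, a kinase that phosphorylates Smk1, 62.2, 53.9 and 106 and 275, 262 and 165 CPM (−1.66, SE 0.22, adjusted p = 8.27e-09). No ime4 library of the 3 genes reached a pho92 library. Without the third ime4 library SMK1 stood at −4.41 and SSP2 at −4.34. AMA1, 1 of the 6, also stands in the divisions list.

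Late spore wall genes were mostly lower in ime4 too. The 26 genes summed to 16939, 10217 and 32230.0 CPM in ime4, 206878, 168767 and 89346 CPM in pho92 and 412449, 392550.0 and 375082 CPM in WT. The third ime4 library was the highest of its group and the third pho92 library the lowest, and still the groups did not overlap. Of 26 genes 22 were lower, 1 was higher and 3 were not called (median −2.85), with 20 lower and 4 higher under total counts. CDA1, a chitin deacetylase gene of the chitosan layer, had 437, 339 and 955 CPM in ime4 and 5305, 4927 and 2873 CPM in pho92 (−2.92, SE 0.45, adjusted p = 2.91e-07). CRR1, a wall transglycosidase homologue, had 223, 171 and 439 and 2669, 2383 and 1276 CPM (−2.92, SE 0.41, adjusted p = 3.23e-08), and GAT4, a GATA-family gene, 17.4, 5.30 and 41.0 and 977, 403 and 159 CPM (−4.60, SE 0.66, adjusted p = 6.2e-08). GAT4 stood at −5.50 without the third ime4 library and at −3.76 without the first pho92 library. LDO16, listed under its older name OSW5, was lower by less (−1.12). SHC1, a chitin synthase activator of sporulation, was the exception (0.76), and was not called without the second ime4 or the second pho92 library (adjusted p = 0.0896 and 0.0914).

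**Figure D3:**
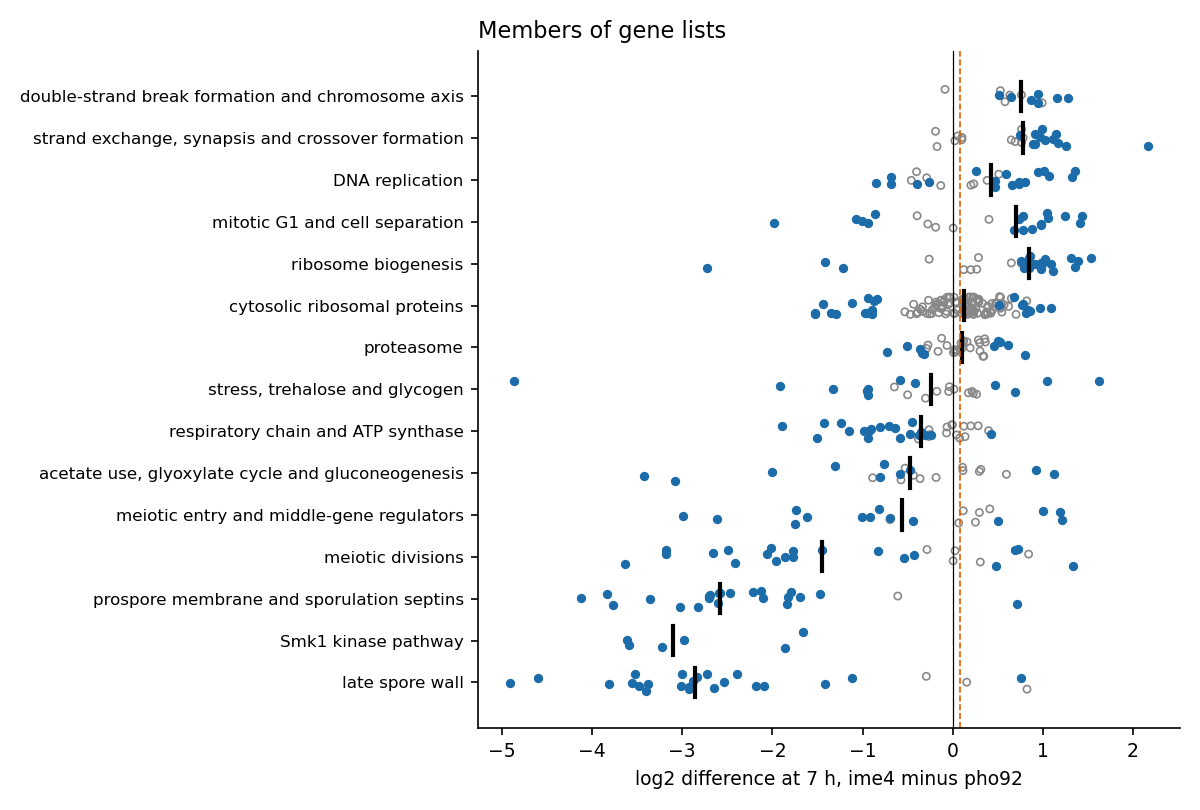
Log2 difference at 7 h between ime4 and pho92 for the members of 15 gene lists, filled where called by edgeR at an adjusted p under 0.05 and open where not. Black bars mark list medians and the dashed line the median of all genes (0.08), and the 4 lists of divisions, membrane, Smk1 pathway and wall lie to its left with medians of −1.45 to −3.10.

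Promoter windows of a few of these genes are printed because middle and early genes are known by short upstream sites. The middle sporulation element (MSE), searched as GNCACAAA, is the site of Ndt80 and of the Sum1 repressor, and the URS1 core, searched as GGCGGC, is the site of Ume6. Each motif was searched on both strands from 250 bases before to 50 bases after the start of the coding sequence, in R64, the reference genome of another laboratory strain, so SK1 bases may differ. The MSE was found in 20.7% of the promoters of genes at least 2 log2 units lower in ime4 (77 of 372), 1.41% of those at least 1 log2 unit higher (8 of 568) and 4.46% of all genes tested (245 of 5492). The URS1 core was found in 3.76% (14 of 372), 7.22% (41 of 568) and 4.77% (262 of 5492). The lower and higher sets here were cut at unlike sizes. Among all genes called, the MSE was in 8.83% of the lower (165 of 1868) and 1.64% of the higher promoters (32 of 1949). For the URS1 core these shares were 4.18% (78 of 1868) and 4.93% (96 of 1949). By list, the MSE was in 15 of 26 late wall, 11 of 23 prospore membrane and 6 of 25 division promoters and in none of 13 break and axis or 22 strand exchange promoters. The URS1 core was in 8 of the 13 and in 8 of the 22. These are matches of letters and show no binding. The SMK1 window also holds a URS1 core, left in lower case, which shares no base with its MSE.

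The windows below run from 250 to 60 bases before the coding start, 5′ to 3′ on the gene's strand, with the MSE in capitals for NDT80 (chrVIII:356311-356501, plus strand), SMK1 (chrXVI:666030-666220, plus) and SPR28 (chrIV:905112-905302, minus) and the URS1 core in capitals for HOP1 (chrIX:226352-226542, plus) and DMC1 (chrV:548171-548361, plus).
NDT80: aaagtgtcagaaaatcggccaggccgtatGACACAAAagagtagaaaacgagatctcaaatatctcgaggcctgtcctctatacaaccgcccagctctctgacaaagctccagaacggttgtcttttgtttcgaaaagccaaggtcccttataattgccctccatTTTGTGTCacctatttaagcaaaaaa
SMK1: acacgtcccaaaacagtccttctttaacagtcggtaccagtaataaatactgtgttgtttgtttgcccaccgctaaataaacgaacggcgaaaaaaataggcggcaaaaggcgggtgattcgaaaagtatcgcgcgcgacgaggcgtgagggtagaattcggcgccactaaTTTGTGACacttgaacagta
SPR28: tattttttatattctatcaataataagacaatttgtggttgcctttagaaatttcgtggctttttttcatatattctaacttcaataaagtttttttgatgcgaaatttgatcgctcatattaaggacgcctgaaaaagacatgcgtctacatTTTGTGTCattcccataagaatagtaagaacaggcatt
HOP1: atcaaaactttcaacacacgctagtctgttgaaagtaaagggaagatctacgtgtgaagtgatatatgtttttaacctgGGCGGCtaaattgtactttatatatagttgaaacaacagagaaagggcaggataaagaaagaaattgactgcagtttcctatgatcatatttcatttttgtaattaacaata
DMC1: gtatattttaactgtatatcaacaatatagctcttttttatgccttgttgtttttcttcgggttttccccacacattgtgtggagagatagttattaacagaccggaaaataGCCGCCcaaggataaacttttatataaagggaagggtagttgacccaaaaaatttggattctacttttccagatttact
A match on the opposite strand is capitalised as it reads on the printed strand. SPR28, a sporulation septin gene, HOP1, an axis gene, and DMC1, the meiotic recombinase gene, lay outside the naming rule and were picked after their values were seen. SPR28 had 706, 445 and 1272 CPM in ime4 and 5475, 5944 and 3202 CPM in pho92 (−2.59, SE 0.46, adjusted p = 3.8e-06). HOP1 had 2252, 1959.7 and 2259 and 682, 909 and 1319.5 CPM (1.15, SE 0.50, adjusted p = 0.0403), and DMC1 3554, 3296 and 3523 and 1294, 1651 and 2372 CPM (0.96, SE 0.41, adjusted p = 0.0359). For all 3 the groups were separate, SPR28 lower in ime4 and the other pair higher.

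The 10 largest falls by the naming rule, IME4 aside, held transporter, spore wall and glycogen-degrading genes. HXT10, a hexose transporter gene, had 45.6, 17.7 and 132 CPM in ime4, 10475, 2953 and 1058 CPM in pho92 and 41518, 32772 and 26099 CPM in WT. All ime4 libraries lay below all pho92 libraries, and the pho92 libraries themselves spread widely, with the first highest. Its difference was −6.21 (SE 0.92, adjusted p = 1.17e-07), or −7.25 without the third ime4 library and −4.98 without the first pho92 library, and reads may be shared with other HXT genes. SPR2, a spore wall gene, had 429, 379 and 988 CPM in ime4 and 28150.2, 17454 and 8362 CPM in pho92 (−4.91, SE 0.78, adjusted p = 4.82e-07). SGA1, the sporulation glucoamylase that degrades glycogen, had 165, 114 and 477 and 12498, 6749.6 and 2816 CPM (−4.87, SE 0.62, adjusted p = 4.91e-09), with −5.72 and −4.28 without the third ime4 and the first pho92 library. The ranges were again separate, with the third libraries nearest to each other.

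GLN1, the glutamine synthetase gene, had 115, 498 and 186 CPM in ime4 and 7391, 4436 and 2408 CPM in pho92 (−4.15, SE 0.54, adjusted p = 8.06e-09). Here the second ime4 library was the highest of its group, and the value without it was −4.98. CLB6, an S-phase cyclin gene, had 13.2, 11.2 and 35.5 CPM in ime4 and 464 ± 164 CPM in pho92 (SD, n = 3, with a difference of −4.54, SE 0.59, adjusted p = 5.97e-09). CTS2, a putative chitinase gene, stood at −4.82, the arginine transporter gene ALP1 at −4.42 and the hexose transporter gene HXT14 at −4.13. Without the third ime4 library these 4 genes, CLB6 included, stood at −5.25, −5.75, −5.17 and −4.86 in that order. GAT4, given above, completes the set.

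The 10 largest rises, PHO92 aside, were smaller. REV1, a translesion DNA synthesis gene, had 156, 144 and 154 CPM in ime4, 30.2, 21.7 and 20.2 CPM in pho92 and 34.5 ± 5.97 CPM in WT (2.66, SE 0.21, adjusted p = 3.03e-14). RAD5, a post-replication repair gene, had 81.8, 93.1 and 83.6 and 17.5, 17.4 and 21.4 CPM (2.20, SE 0.22, adjusted p = 2.11e-11). SKG6, a membrane protein gene, had 42.4, 49.1 and 40.7 and 6.86, 6.79 and 9.45 CPM (2.51, SE 0.23, adjusted p = 2.4e-12). In all 3 genes every ime4 library was at least 3 times every pho92 library. The others were SPL2, which acts in phosphate uptake (2.36), MSA2, a G1 transcription factor (2.25), MKC7, a cell wall protease (2.24), RKM3, a ribosomal protein methyltransferase (2.16), RDH54, given above, and KIN82, a protein kinase on the part of chromosome III described below (2.18).

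Growth and metabolism genes differed less, and several of their directions turned with the scaling. Of 28 ribosome biogenesis genes 18 were higher in ime4 and 3 lower (median 0.85), but 6 were higher without the first ime4 library, 7 without the first and 10 without the second pho92 library. The summed levels of these genes overlapped, at 1439, 931 and 957 CPM in ime4 and 1372, 1156 and 1037 CPM in pho92. NOP7, a pre-ribosome factor gene, had 44.9 ± 14.0 CPM in ime4 and 17.0 ± 6.94 CPM in pho92 (SD, n = 3, with a difference of 1.39, SE 0.29, adjusted p = 3.82e-05). The 3 lower genes were the helicase genes DRS1 (46.9, 36.5 and 52.3 against 389, 343 and 164 CPM, −2.72, SE 0.37, adjusted p = 2.57e-08) and DBP3 (−1.42) and the small-subunit factor NAN1 (−1.22), and the last pair was not called under total counts. Of 119 cytosolic ribosomal protein genes 97 were not called, 9 were higher and 13 lower, both shares below those of all genes (34.6% and 33.4%). Total counts changed the split to 95 higher and 1 lower, and paired copies may share reads. The higher count ran from 2 without the first pho92 library to 26 without the third ime4 library, and the lower count reached 20 without the second ime4 library.

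Of 35 respiratory chain and ATP synthase genes 19 were lower in ime4, 1 was higher and 15 were not called (median −0.35), against 33.4% of all genes lower and 34.6% higher. Total counts turned the split to 20 higher and 3 lower (median 0.56). In a fit to the 6 libraries alone 12 were lower. COR1, of complex III, had 503, 591 and 532 CPM in ime4 and 1954, 1523 and 1122 CPM in pho92 (−1.50, SE 0.15, adjusted p = 3.7e-11), and CYC1, cytochrome c, 40.4, 95.5 and 73.2 and 268, 290.0 and 219.6 CPM (−1.89, SE 0.25, adjusted p = 1.29e-08). The groups of both genes were separate. SDH3, of complex II, was the higher gene (0.42) with overlapping libraries, and was not called without any 1 of the second ime4, first pho92 or second pho92 libraries (adjusted p = 0.232, 0.415 and 0.142).

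Of 21 genes of acetate use, the glyoxylate cycle and gluconeogenesis 8 were lower, a share near the 33.4% of all genes, and 2 higher, against 34.6% of all genes (median −0.47), again turned by total counts (2 lower, 8 higher, median 0.39). The lower count was 3 in a fit to the 6 libraries alone, 13 without the second ime4 library and 5 without the third pho92 library. PCK1, the first step of gluconeogenesis from oxaloacetate, had 186, 524 and 306 CPM in ime4 and 3692, 2789 and 2133 CPM in pho92 (−3.08, SE 0.34, adjusted p = 1.22e-10). ICL1, isocitrate lyase of the glyoxylate cycle, had 190.0, 689.5 and 398 and 6416, 4181 and 3102 CPM (−3.42, SE 0.46, adjusted p = 1.24e-08). The second ime4 library was the highest of its group for both, still under every pho92 library. The higher genes were SIP4, an activator of gluconeogenic genes (2041, 1907 and 1814 against 691, 853 and 1091 CPM, 1.13, SE 0.18, adjusted p = 4.88e-07), and ACS1, acetyl-CoA synthetase (0.92, SE 0.24, adjusted p = 0.000787), the latter not called in a fit to the 6 libraries alone.

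Of 24 stress, trehalose and glycogen genes 8 were lower, a share near the 33.4% of all genes, and 4 higher, a share below the 34.6% of all genes (median −0.24), or 2 and 12 under total counts (median 0.65), and 2 higher without the first pho92 library. SSA4, a heat-shock chaperone gene, was lower at 148, 133 and 242 against 829.5, 719 and 428 CPM (−1.92, SE 0.29, adjusted p = 1.98e-07), and GRE1, an osmotic stress gene, higher at 38.3 ± 1.13 against 12.4 ± 3.54 CPM (SD, n = 3, with a difference of 1.62, SE 0.40, adjusted p = 0.000456). Among 22 genes of the mitotic G1 phase and of cell separation, 12 stood higher and 5 lower (median 0.71), against 34.6% and 33.4% of all genes. Without the first pho92 library 3 were lower. CTS1, the chitinase of mother-daughter separation, had 43.2 ± 7.91 CPM in ime4 and 16.2 ± 3.00 CPM in pho92 (SD, n = 3, with a difference of 1.41, SE 0.23, adjusted p = 1.01e-06), and its groups were separate. The lower genes included DSE3, EGT2, AMN1 and WHI5 (−0.86 to −1.07), of which EGT2, AMN1 and WHI5 turned positive under total counts (0.025 to 0.15). EGT2 and WHI5 were not called without the first pho92 library (adjusted p = 0.0549 and 0.119).

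Set beside the neighbouring times, many of the genes lower in ime4 at 7 h were lower at 6 h too, and fewer were at 9 h. At 6 h 2348 genes were called (40.3%), 1115 higher (19.2%) and 1233 lower (21.2%), and at 9 h 3821 (65.6%), 2042 higher (35.1%) and 1779 lower (30.6%). Of the 1946 genes lower in ime4 at 7 h, 1133 were lower at 6 h, 58.2% of the first list and 91.9% of the second, and 15 were higher there. At 9 h 525 of them were lower, 27.0% and 29.5% of the lists, and 493 were higher. The difference at 7 h itself differed from that at 6 h for 987 genes (17.0%), 714 more negative (12.3%) and 273 more positive (4.69%), by edgeR's quasi-likelihood test of the interaction. That count ranged from 77 without the first pho92 library to 2164 without the third, and was 449 without the first ime4 and 538 without the second pho92 library. A fit to the 12 libraries of the 2 times called 0 genes (edgeR; 1183 at an unadjusted p under 0.05, and 1189 called by DESeq2 on all libraries). The difference at 7 h differed from that at 9 h for 3845 genes (66.0%), 2202 more negative (37.8%) and 1643 more positive (28.2%).

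Of the 23 prospore membrane genes, 20 stood lower in ime4 at 6 h, 21 at 7 h and none at 9 h, where 3 were higher, and the change from 7 to 9 h was called for all 23. For the Smk1 pathway the lower counts were 6, 6 and 0 of 6, and the change was called for all 6. For late wall genes they were 22, 22 and 5 of 26, with the change called more negative at 7 h for 20 and more positive for 3. Of 13 break and axis genes 0, 7 and 13 were called higher in ime4 at 6, 7 and 9 h, but the test of the change itself called 0 of them between 6 and 7 h and 3 between 7 and 9 h, all more negative at 7 h. Of 23 strand exchange genes 4, 12 and 18 were called higher, and the change was called for 2 between 6 and 7 h, both more positive at 7 h, and between 7 and 9 h for 5 more negative and 4 more positive at 7 h. The lists' medians at the 3 times were 0.02, 0.76 and 1.64 for breaks and axis, and −3.45, −2.85 and 0.02 for the late wall.

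Single genes show the courses behind these counts. Taken at 6, 7 and 9 h in turn, NDT80 in ime4 had 432 ± 156, 1009.9 ± 459 and 3271 ± 608 CPM (SD, n = 3). In pho92 it had 1331 ± 767, 3369.9 ± 923 and 2498 ± 272 CPM, and in WT 5424 ± 884, 6269 ± 229 and 1014 ± 92.0 CPM. NDT80 was thus lower in ime4 at 6 and 7 h (−1.62 and −1.74) and was not called at 9 h (0.39). SMK1 in ime4 had 20.2 ± 16.5, 165 ± 123 and 1768 ± 515 CPM, and in pho92 477 ± 422, 2008 ± 836 and 1939 ± 178 CPM. HOP1 in ime4 had 2226 ± 316, 2157 ± 171 and 988 ± 332 CPM, and in pho92 1827 ± 224, 970.2 ± 323 and 260.4 ± 57.6 CPM. The mean of HOP1 was thus lower at 7 h than at 6 h in pho92 and close to its 6 h value in ime4, while that of SMK1 was higher at 7 h in both, differences between times that were not tested within a strain. The difference between the strains in HOP1 was not called as changed from 6 to 7 h (0.87, adjusted p = 0.385) or between 7 and 9 h (−0.77 at 7 h relative to 9 h, adjusted p = 0.339). At 1 time point, strains that stand at different steps of the same course and strains that differ at the same step cannot be told apart.

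**Figure D4:**
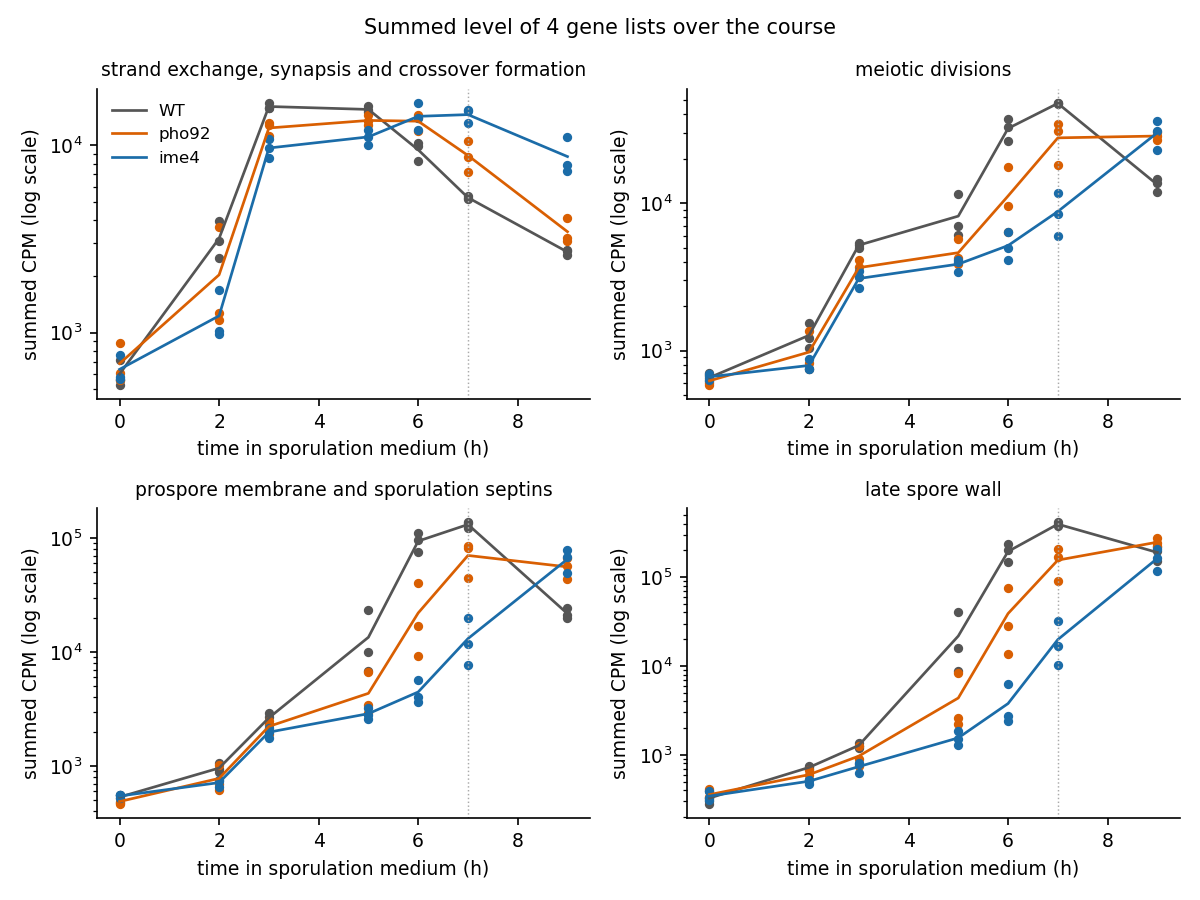
Summed level (CPM, log scale) of 4 gene lists over time in sporulation medium, with single libraries as points, means of 3 as lines and 7 h dotted. At 7 h the division, membrane and wall lists are ordered WT, pho92, ime4 from high to low and the strand exchange list in the reverse order, and by 9 h pho92 and ime4 overlap in the division and membrane lists.

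Part of chromosome III differed between the strains before meiosis and is given with its values, since it holds 7 of the 25 largest rises. The genes between the mating-type locus MAT and the silent locus HMR (chromosome III, after 200969 and before 293179 on R64) number 52, of which 48 were tested. At 0 h, where 689 genes were called over the genome (11.8%), 233 higher in ime4 (4.00%) and 456 lower (7.83%), their median difference was 1.02, with 41 of 48 higher in ime4 and none lower, against 0.02 over the other 104 genes of the chromosome. Their summed level at 0 h was 3742, 3623 and 3480.5 CPM in ime4, 3654, 3620.4 and 3459 CPM in WT and 1799, 1803 and 1894 CPM in pho92. The pho92 libraries all lay below those of the other strains, which overlapped each other. At 7 h the median was 1.00, with 35 genes higher and 4 lower in ime4. RRT12, a spore wall gene there, was the lowest of the 48 (−2.78, 304, 230.0 and 947 CPM in ime4 against 4919.8, 3553 and 1682 CPM in pho92; picked after its values were seen). KIN82 stood at 1.02 at 0 h (adjusted p = 0.000133) and 2.18 at 7 h. DNA copy number was not measured, and its part in these values was not tested. Without these genes 1978 were higher and 1942 lower at 7 h.

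**Figure D5:**
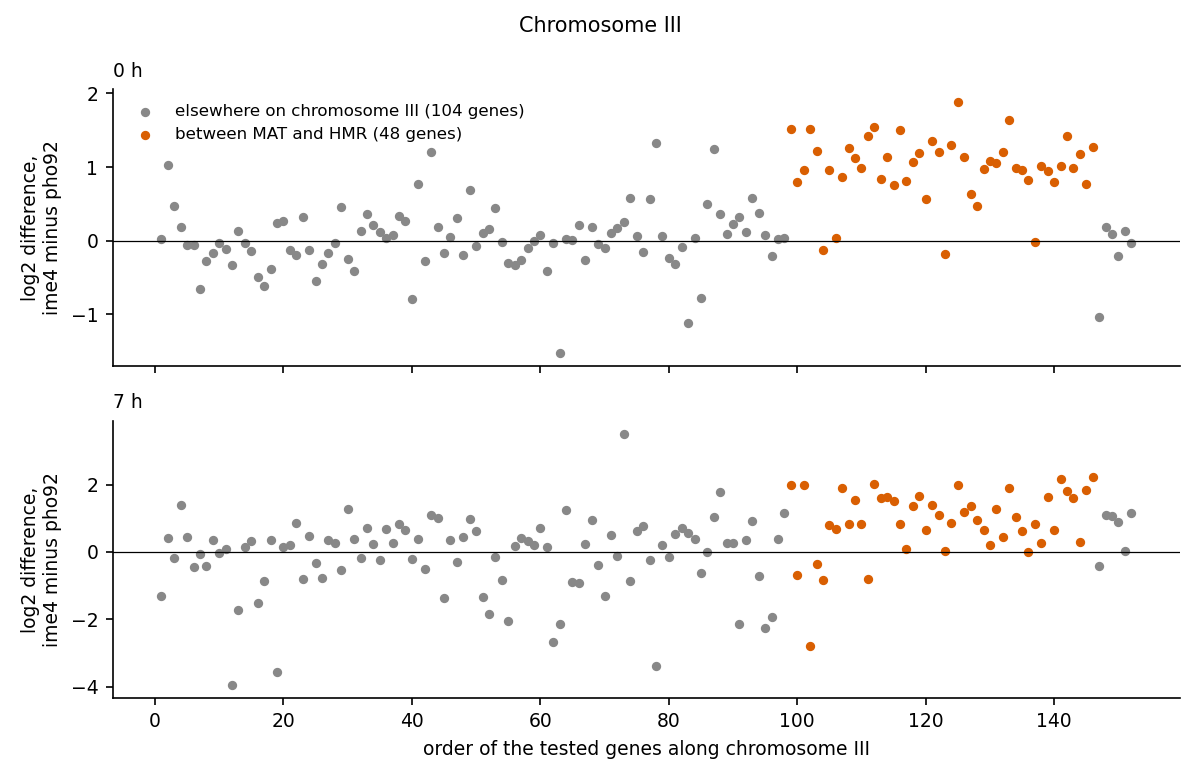
Log2 difference between ime4 and pho92 for the 152 tested genes of chromosome III in their order along the chromosome, at 0 h (top) and 7 h (bottom), with the 48 genes between MAT and HMR in orange. The orange points centre on 1.02 at 0 h and 1.00 at 7 h.

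Genes beside PHO92 also differed at 0 h. FRQ1, its nearest neighbour on one side, stood at 1.80 at 7 h and 1.70 at 0 h, and WIP1, on the other side, at −1.87 and −1.05 (edgeR, adjusted p = 4.54e-10, 1.48e-08, 9.18e-11 and 0.000132). FRQ1 was at 14.5, 16.6 and 16.8 CPM in pho92 and 40.7 ± 19.2 CPM in WT at 7 h, and the pho92 libraries lay below every ime4 and WT library. WIP1 at 7 h had 111 ± 10.1 CPM in ime4, 405 ± 123 CPM in pho92 (SD, n = 3) and a mean of 380.0 CPM in WT, so there ime4 was the low strain. BCS1, 2 places from PHO92, was lower in ime4 at 0 h (−1.09, adjusted p = 1.14e-07) and higher at 7 h (0.49, adjusted p = 0.00308). Beside IME4, HOS2 (−0.69) and COX13 (−0.59) were called at 7 h and not at 0 h. DSD1, 4 places from IME4, was called at 7 h (0.32) and at 0 h (0.61; edgeR, adjusted p = 0.0433 and 0.00102). Over all genes 68.0% were called at 7 h and 11.8% at 0 h. CTS2, among the largest falls, lies 4 genes from PHO92 and was not called at 0 h (−0.43, adjusted p = 0.756). These neighbours were picked for their position.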

How the data were processed

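Poly(A) RNA libraries (stranded TruSeq kit, 500 ng of total RNA, 50-nt single reads) were sequenced, per the labels' protocols. The submitters' processing notes name HTSeq 0.6.1, TopHat2 2.0.14, Bowtie and bcl2fastq without their roles. The sources used here give no genome build, strand setting or treatment of shared reads, so overlapping, antisense and paralogous genes are uncertain. The authors deposited raw read counts for 6088 genes and 63 libraries, per the file headers, and the deposited gene length, given as other information, was not used in a result. A further 126 deposited columns of normalized values were not used. Of the genes 5575 matched R64 locus tags, with starts equal for 99.93% of them.

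The filter filterByExpr (minimum count 10) took out 266 genes. One edgeR 4.0.16 quasi-likelihood model (R 4.3.3, limma 3.58.1) was fitted to all 63 libraries with 1 mean per strain and time, TMM scaling, 42 residual degrees of freedom and Benjamini-Hochberg adjustment over 5822 genes. Depth over the 63 libraries was 12826747 to 33048881 counts. Replicates of the compared groups differed beyond counting error (chi-square over its degrees of freedom, 114 to 478), so replicate spread, not depth, set the precision. DESeq2 1.42.0, other scalings, no filter, the compared libraries alone, a replicate block and each library left out were alternatives. The 7 h test was also run on independent counts simulated with the fitted dispersions. That setting cannot show the effect of differences shared by many genes of a library.

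Members and lists were chosen with earlier results of these data known. Named were 5 genes always (IME4, PHO92, IME1, IME2 and NDT80), the 10 largest called rises and falls with at least 10 CPM in a group, separate libraries and a standard name, up to 4 members of each described list by p, and members called against their list. A few genes that this rule names are not reported here.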

Additional observations from a re-analysis of the deposited data

Results flagged for a closer look

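The size of the strain difference was called as changed between times for part of the genes. By edgeR's quasi-likelihood test of the interaction, 987 genes had a difference between ime4 and pho92 at 7 h that differed from the one at 6 h, and 3845 genes one that differed from that at 9 h. Both tests use the same 6 libraries at 7 h.

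Against 6 h, GLN1 was the gene called as changed among IME1, IME2, NDT80, the mutated genes and the largest rises and falls. Its difference was more negative at 7 h by −2.43 on the log2 scale in the fit to all libraries. The fit to the 12 libraries of the 2 times called 0 genes, GLN1 included. GLN1 stood in ime4 at 306 ± 334 CPM at 6 h and 267 ± 204 CPM at 7 h and in pho92 at 1012 ± 589.7 and 4745 ± 2506 CPM (SD, n = 3).

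Against 9 h the difference at 7 h was more negative for 9 of the largest falls, HXT10 (−4.93), CLB6 (−4.45), HXT14 (−4.33), SPR2 (−4.20), GAT4 (−4.18), ALP1 (−3.98), CTS2 (−3.93), SGA1 (−3.74) and GLN1 (−2.26). These genes were picked for their low value at 7 h, and that choice by itself favours a more negative value at 7 h than at 9 h. HXT10 in ime4 went from a mean of 65.2 ± 59.8 CPM at 7 h to 10775 ± 6705 CPM at 9 h, and in pho92 from 4829 ± 4981 to 26132 ± 4898 CPM. The regulator genes NDT80 (−2.13) and IME2 (−1.69) changed in the same direction. IME4 did too (−2.22), with its own mutant near 0 at both times.

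The difference was more positive at 7 h than at 9 h for RAD5 (2.27), RKM3 (2.26), REV1 (1.69), MKC7 (1.29), KIN82 (1.17) and RDH54 (0.80). As largest rises at 7 h, these genes were favoured in that direction by their choice. REV1 in pho92 had 24.1 ± 5.42 CPM at 7 h and 50.6 ± 7.24 CPM at 9 h, and in ime4 152 ± 6.58 and 98.7 ± 6.62 CPM.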

How the results depend on the processing

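Total counts alone gave 4038 genes higher and 761 lower at 7 h, 2866 genes with a changed difference against 6 h (2698 more positive, 168 more negative) and 1111 more negative against 9 h. Of 99 named genes 79 were counted as the same, 7 lost the call and 13 were counted as changed in sign: SLZ1 (0.20), DYN2 (0.72), RIM15 (0.067), MCM4 (0.70), MCM5 (0.29), RFC3 (0.28), RFC4 (0.57), DBF4 (0.10), WHI5 (0.15), EGT2 (0.025), AMN1 (0.072), ATP7 (0.020) and GDB1 (0.051). IME2, not called with TMM scaling, stands among the 79 although its sign turned positive too. Requiring at least 1 log2 unit left 1747 genes (612 higher, 1135 lower). The causes were not tested.

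The comparison with 6 h was unstable. A fit to its 12 libraries alone called 0 genes in either direction (edgeR; 1183 at an unadjusted p under 0.05, and 1189 called by DESeq2 on all libraries). Leaving out single libraries at 7 h gave 77 to 2164 genes, 0 to 975 more positive (0 without the first pho92 library, where 316 had an unadjusted p under 0.05) and 77 to 1189 more negative. The count at 7 h itself ranged from 3363 to 4137 over left-out libraries and was 3028 in a fit to the 6 libraries alone and 3952 with DESeq2. The fit with the replicate block, with a common term for equal numbers, called 3986 genes at 7 h, 1039 against 6 h and 3866 against 9 h and changed the call of none of the 99 named genes. Deviations of same-numbered libraries from their group means had correlations of −0.11, −0.32 and −0.70. With 3 libraries per group these values cannot show whether equal numbers shared a day or culture, which the labels do not state.

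Of the 99 genes, DESeq2 and RLE scaling lost the call of 2 each, the 6 libraries alone of 9, and single left-out libraries of up to 12. Searching promoters upstream of the start only gave the MSE in 19.6% of the genes at least 2 log2 units lower, 0.704% of those at least 1 unit higher and 3.59% of all.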

Other observations

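Other gene lists were measured at 7 h and are given as counts by edgeR's quasi-likelihood test, against 34.6% of all genes called higher and 33.4% lower. Total counts moved each split towards ime4. Of 10 histone genes none was higher in ime4 and 4 were lower (median 0.05), against 6 and 1 under total counts. Of 13 glycolytic genes 1 was higher and 4 lower (median −0.34), with 3 and 2 under total counts and 7 lower without the second ime4 library. Of 16 phosphate-responsive genes 5 were higher and 6 lower, with 10 and 3 under total counts. Of 8 copper-responsive genes 4 were higher and 2 lower, with 6 and 2 under total counts and 2 higher without the second ime4, the first pho92 or the second pho92 library. Of 27 amino acid synthesis genes 5 were higher and 8 lower, with 16 and 1 under total counts, and the higher count ran from 2 to 8 over left-out libraries. Of 32 proteasome genes 5 were higher, 5 lower and 22 not called, with 31 and 0 under total counts, and the higher count ran up to 11 without the third pho92 library. Of 19 haploid and mating genes 5 were higher and 7 lower, with 12 and 3 under total counts.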
